A study of Mus musculus with 15 samples.

Results

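The syndecans (Sdc1, Sdc2, Sdc3 and Sdc4) and the glypicans (Gpc1, Gpc2, Gpc3, Gpc4, Gpc5 and Gpc6) were examined in the RNA of mouse small intestinal organoids that overexpressed the transcription factor SOX9. These 10 genes, of 78298 in the count tables, were taken by their symbol. The set was chosen by the fold change of Sdc2, among the larger rises in Sox9 organoids over control organoids, so every member is given there as a description with no test, and Sdc2 is given without a test in each comparison that uses organoid libraries. Of the 10 members, 7 passed the filter on low counts and were among the 17560 genes tested, and Gpc3, Gpc5 and Gpc6 did not pass.

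Poly-A RNA was sequenced in 15 libraries, 3 for each of 5 groups. All lines were primary cultures grown from small intestinal crypts of C57BL/6J mice (adult females) on a wild-type background, transduced with lentivirus and selected with an antibiotic. In every line the L30 promoter, which was not restricted to a cell type, drove the transgene. The organoids were harvested 5 days after seeding, with 6 wells pooled for a library. The control line, Halo-NLS, carried a V5-tagged HaloTag with a nuclear localization signal, and the lines Sox9-Halo and Sox9-mEGFP carried Sox9 fused to the HaloTag or to the green fluorescent protein mEGFP. Halo-NLS, Sox9-mEGFP and Sox9-Halo organoids had that transgene alone. The groups labelled spheroids were the Sox9 lines after longer culture, when they had become round, and they carried a further transgene, H2B-mEGFP in Sox9-Halo spheroids and H2B-mScarletI in Sox9-mEGFP spheroids. Shape, time in culture and the added transgene therefore cannot be told apart between spheroids and organoids. By time in culture the study places Halo-NLS first, then Sox9-mEGFP organoids, Sox9-Halo organoids, Sox9-mEGFP spheroids and Sox9-Halo spheroids. Comparisons among organoids or among spheroids therefore also differ in time in culture and in progress towards the round shape. Each construct was represented by 1 stable line, and the libraries of a group were biological triplicates of that line at nearby passages, so the p-values measure the spread within a line.

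Syndecans and glypicans are cell surface proteins that carry chains of heparan sulfate, a long sulfated sugar that binds growth factors such as FGFs, Wnts and hedgehogs and components of the matrix. Syndecans cross the membrane, bind adaptor proteins inside the cell and are shed from the surface by proteases, whereas glypicans are held in the outer leaflet by a GPI anchor and can be released by lipases. In the intestine, syndecan-1 is the characteristic syndecan of the epithelium, where it lines the basolateral surface.

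The libraries held between 28062722 and 40559766 counts on genes (median 33491297). Sox9, transgene and native gene together, stood at 9.10 to 22.9 CPM (counts relative to library size, scaled by the TMM method) in Halo-NLS organoids and at 39.8 to 705 CPM in the 12 Sox9 libraries, lowest in Sox9-Halo organoid replicate 1. The 7 epithelial markers summed to between 5192 and 11619 CPM in the single libraries. Epcam was at 461 CPM and Vil1 at 118 CPM in Sox9-Halo spheroids, against 993 and 1411 CPM in Halo-NLS organoids, and Krt20 at 0.307 against 241 CPM. In the same comparison Krt18 was at 1558 against 520.02 CPM, Cdh1 at 857 against 614 CPM, Krt8 at 1989 against 2782 CPM and Krt19 at 1272 against 1427 CPM. Markers of fibroblasts summed to 0.317 to 3.37 CPM, those of smooth muscle to 0 to 1.75, of endothelium to 0.0353 to 1.35, of leukocytes to 0.992 to 11.1 and of neurons and glia to 0.0684 to 1.31. The leukocyte sum was 5.77 to 11.1 CPM in Sox9-mEGFP and 3.35 to 8.22 CPM in Sox9-Halo spheroids, against at most 3.97 CPM in organoids. Mean Cd68 was 4.85 CPM in Sox9-mEGFP and 4.94 CPM in Sox9-Halo spheroids, against 0.817 CPM in Halo-NLS organoids. Csf1r was at 3.19, 0.1501 and 0.633 CPM in the same order. Ptprc, Cd3e and Adgre1 had lower means in both kinds of spheroid than in Halo-NLS organoids, where replicate 3 was highest. The part of these markers in the differences described here was not tested. Halo-NLS replicate 3 had the most genes with a count (40375, against a median of 28352) and the highest fibroblast sum. Scaling by library size alone instead of TMM raised the median log2 change of all genes from 0.030 to 0.29 in Sox9-mEGFP spheroids and from -0.011 to 0.28 in Sox9-Halo spheroids, each over the Halo-NLS control, and changed the split of calls in the former from 2690 higher and 2133 lower to 3333 and 1500. In Sox9-Halo spheroids the split turned, from 2392 higher and 2682 lower to 3102 and 2229.

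A few of the syndecan and glypican genes carried the differences between groups. Sdc1 and Sdc4, the abundant syndecans, had lower levels in Sox9 organoids than in every spheroid library of the same line. Sdc2 was close to absent in Halo-NLS organoids and stood at 21.6 to 27.8 CPM in spheroids of both lines. Gpc1 rose in spheroids of both lines, far more in Sox9-Halo than in Sox9-mEGFP, and Gpc2, itself rare, fell to 0 to 2 counts a library. Gpc4, the main glypican of the organoids, did not pass the test in any comparison.

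**Figure D1:**
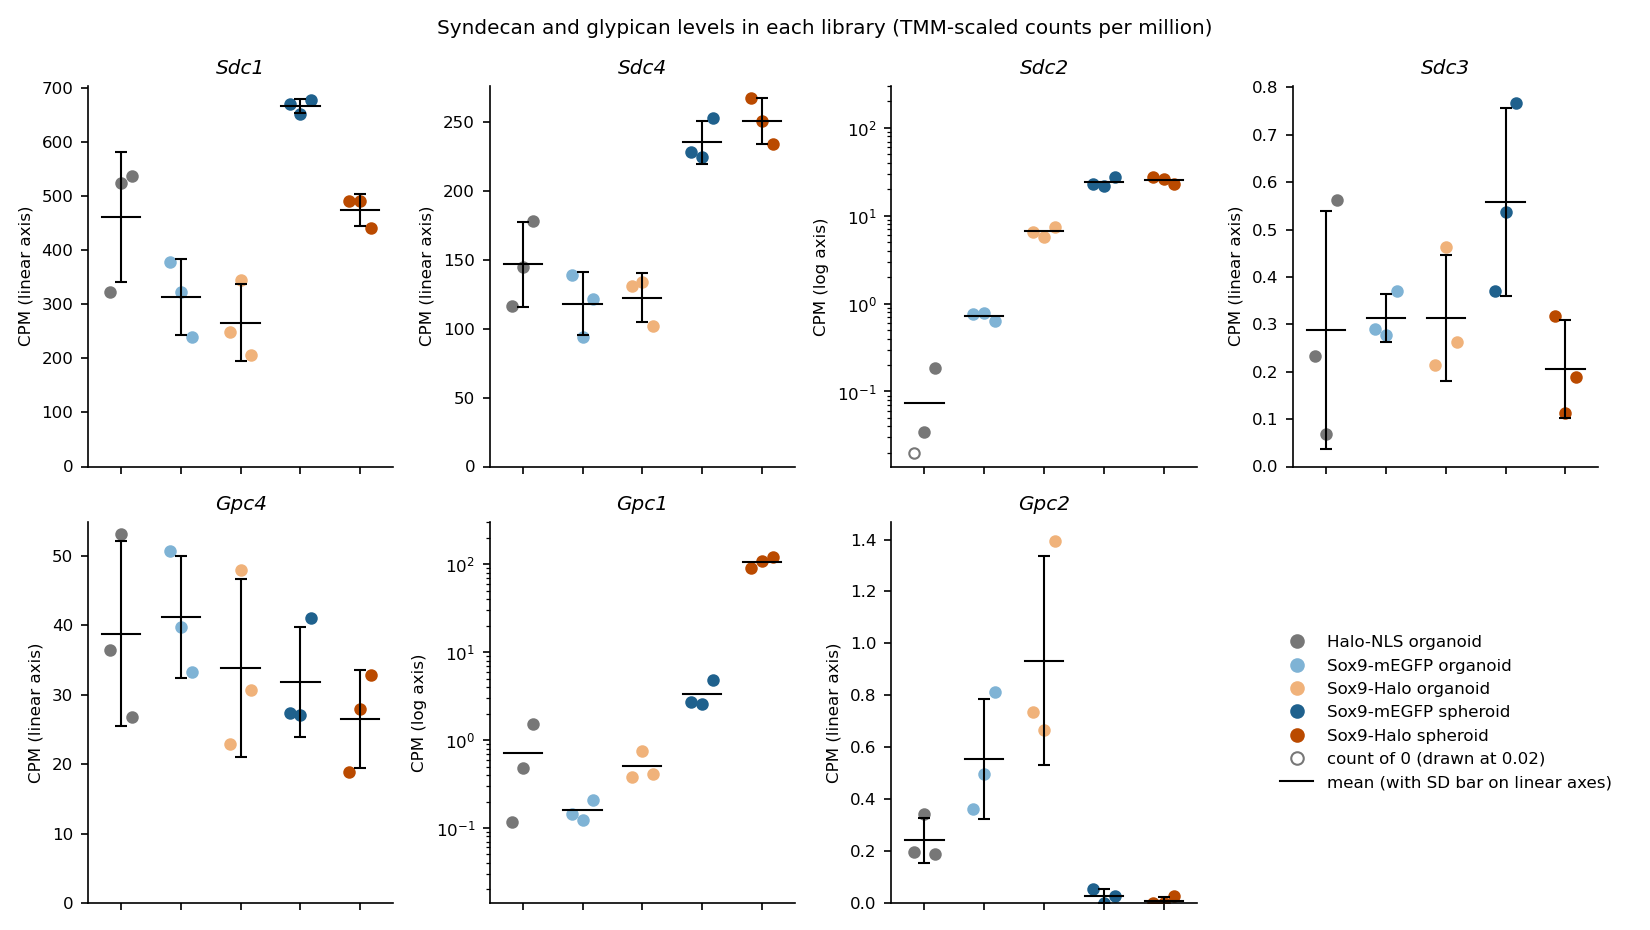
Levels of the 7 members that passed the low-count filter, 1 point per library, in CPM scaled by TMM. Horizontal lines are group means and bars on the linear axes are SDs over 3 libraries. Sdc2 and Gpc1 have a log axis, where an open point marks a count of 0. A reader sees Sdc2 rise in steps from at most 0.187 CPM in Halo-NLS organoids to at least 21.6 CPM in spheroids, Gpc1 above 91 CPM only in Sox9-Halo spheroids, and Gpc2 near 0 in both kinds of spheroid.

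Sdc1 (ENSMUSG00000020592, chr12:8820854-8843725, plus strand, GRCm39) encodes syndecan-1. In Halo-NLS organoids its level was 323, 525 and 538 CPM in the 3 libraries, in Sox9-mEGFP organoids 380, 323 and 240 CPM, and in Sox9-Halo organoids 249, 345 and 206 CPM. It was 671, 654 and 678 CPM in Sox9-mEGFP spheroids and 492, 492 and 441 CPM in Sox9-Halo spheroids. All spheroid libraries of either line lay above all organoid libraries of that line, while Sox9-Halo spheroids lay within the range of Halo-NLS organoids. Sdc1 was higher in Sox9-mEGFP spheroids than in Sox9-mEGFP organoids by 1.09 ± 0.24 on the log2 scale (± SE, adjusted p = 0.0028, edgeR). This call was lost in 5 of the 6 fits that left out a library of those groups, with changes between 0.88 and 1.25. Between Sox9-Halo spheroids and Sox9-Halo organoids the difference was 0.83 ± 0.24 (adjusted p = 0.011), short of the threshold, and it was called without Sox9-Halo organoid replicate 2 (1.07). With the replicate numbers as a block the difference was 0.85 (adjusted p = 0.0090) in the fit of all libraries, under the fold limit only. In a blocked fit of that line alone it was 0.83 (adjusted p = 0.011). Against Halo-NLS organoids it was 0.53 ± 0.24 in Sox9-mEGFP spheroids (adjusted p = 0.075) and 0.04 ± 0.24 in Sox9-Halo spheroids (adjusted p = 0.90). The fitted values of the organoids against Halo-NLS, a description, were -0.56 for Sox9-mEGFP and -0.79 for Sox9-Halo.

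Sdc4 (ENSMUSG00000017009, chr2:164266025-164285807, minus strand, GRCm39) encodes syndecan-4, a focal adhesion receptor that binds protein kinase C alpha. Its levels were 117, 145 and 178 CPM in Halo-NLS organoids, 139, 94.2 and 121 CPM in Sox9-mEGFP organoids and 132, 134 and 102 CPM in Sox9-Halo organoids. They were 229, 225 and 253 CPM in Sox9-mEGFP spheroids and 268, 251 and 234 CPM in Sox9-Halo spheroids. No spheroid library overlapped with any organoid library. From organoids to spheroids Sdc4 was higher by 1.03 ± 0.20 in the Sox9-Halo line (adjusted p = 6.3e-04), which was called. In the Sox9-mEGFP line the difference was 0.99 ± 0.20 (adjusted p = 0.0014), just under the required 2-fold change. Against Halo-NLS organoids it came to 0.68 ± 0.20 (adjusted p = 0.011) in Sox9-mEGFP spheroids and to 0.77 ± 0.20 (adjusted p = 0.0048) in Sox9-Halo spheroids, both under 2-fold. The Sox9-Halo call was lost when either Sox9-Halo organoid replicate 3 or Sox9-Halo spheroid replicate 1 or 2 was left out, with changes of 0.94, 0.99 and 0.98, and in an unpaired fit of that line alone (0.99). With the replicate numbers of that line, which paired its libraries, as a block, Sdc4 was called in the fit of all libraries (1.03, adjusted p = 0.00099) and in that of the line alone (1.001, adjusted p = 0.0023). With library sizes alone, the change was past the threshold also for Sox9-Halo spheroids over Halo-NLS organoids (1.06) and within the Sox9-mEGFP line (1.02). The change from organoid to spheroid differed between the lines by 0.04 ± 0.28 (adjusted p = 0.96).

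Promoter sequences of 7 of the 10 members were at hand in RefSeq (GRCm38.p6), and Sdc2, Gpc1 and Gpc6 had no entry. Those of Sdc1 and Sdc4, whose spheroid libraries lay above the organoid libraries of their line, are shown with that of Gpc2, which fell. Each is the 250 bases before the transcription start, 5′ to 3′ on the gene's strand, at chr12:8771146-8771395 (plus), chr2:164443189-164443438 (minus) and chr5:138279938-138280187 (minus). Capitals mark matches, on either strand, to GGGCGG (the GC box, bound by SP factors), TATAA (the TATA motif) or ACAAT (a core of SOX sites).
Sdc1: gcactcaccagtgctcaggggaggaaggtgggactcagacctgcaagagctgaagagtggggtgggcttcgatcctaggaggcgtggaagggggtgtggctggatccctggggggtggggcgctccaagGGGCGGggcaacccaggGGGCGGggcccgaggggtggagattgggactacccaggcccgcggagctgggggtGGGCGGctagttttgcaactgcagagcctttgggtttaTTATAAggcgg
Sdc4: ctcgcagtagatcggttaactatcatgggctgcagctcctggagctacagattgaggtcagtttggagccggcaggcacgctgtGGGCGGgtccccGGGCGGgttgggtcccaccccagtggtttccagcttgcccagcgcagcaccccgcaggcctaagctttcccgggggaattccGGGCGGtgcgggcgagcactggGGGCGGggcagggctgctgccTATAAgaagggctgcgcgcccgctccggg
Gpc2: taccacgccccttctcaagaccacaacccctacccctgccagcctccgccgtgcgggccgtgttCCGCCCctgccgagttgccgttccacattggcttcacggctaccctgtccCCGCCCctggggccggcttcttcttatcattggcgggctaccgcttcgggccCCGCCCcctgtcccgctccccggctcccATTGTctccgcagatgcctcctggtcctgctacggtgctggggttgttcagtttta
GGGCGG was found 3 times before Sdc1, 4 times before Sdc4 and 3 times before Gpc2, and TATAA before Sdc1 and Sdc4 but not before Gpc2. Among the 7 members with an entry, ACAAT was found before Gpc2 alone. Of 27018 promoter windows of this length, 32.9% held GGGCGG, 23.5% TATAA and 28.4% ACAAT. The core of TEAD sites, GGAATG, was present in 1 of the 7 windows (Gpc4) and in 12.6% of all, and TGANTCA, the AP-1 site, in 0 of the 7 and in 6.87% of all. These letters do not say whether a factor binds. The GC content of the windows was 66.0% for Sdc1, 68.0% for Sdc4 and 66.4% for Gpc2.

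Sdc2 (ENSMUSG00000022261, chr15:32920699-33035213, plus strand, GRCm39) encodes syndecan-2, which is known mainly from mesenchymal and neural cells. The Halo-NLS organoid libraries held 0, 1 and 5 counts of it, that is 0, 0.0342 and 0.187 CPM, where a count of 0 allows up to 3 counts. Sox9-mEGFP organoids held 21, 25 and 27 counts (0.760, 0.774 and 0.626 CPM), and Sox9-Halo organoids 278, 200 and 259 counts (6.59, 5.80 and 7.53 CPM). Spheroids stood at 22.7, 21.6 and 27.8 CPM in Sox9-mEGFP and at 27.6, 26.2 and 22.9 CPM in Sox9-Halo. The groups followed each other without overlap up to the spheroids, whose ranges did overlap. Their order by mean level is also that by time in culture, whose part was not tested. Sox9-Halo organoid replicate 1, with the least Sox9 of the Sox9 libraries, had a Sdc2 level between those of the other libraries of its group. Over all genes, 17.2% lay wholly above Halo-NLS organoids in Sox9-mEGFP organoids and 14.8% in Sox9-Halo organoids. The summed fibroblast markers were 1.25 to 3.37 CPM in Halo-NLS organoids, highest in replicate 3, and 0.317 to 0.511 CPM in Sox9-mEGFP and 0.507 to 1.48 CPM in Sox9-Halo spheroids. Among them, Pdgfrb was at 1.40 CPM on average in Halo-NLS organoids and 0.0276 and 0.0386 CPM in these spheroids. Col1a1 alone of them was higher in both, at 0.303 and 0.632 against 0.147 CPM. The smooth muscle sum was 0 to 0.599 CPM in Halo-NLS organoids and 0.142 to 0.344 CPM in Sox9-mEGFP spheroids. In Sox9-Halo spheroids it was 0.953 to 1.75 CPM, with Des at 1.33 CPM. The part of these markers in the Sdc2 values was not tested.

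As a description of the values that chose the set, the ratio of summed Sdc2 counts per effective library size to Halo-NLS organoids was 9.64 in Sox9-mEGFP organoids (95% exact interval 4.22 to 27.1) and 90.3 in Sox9-Halo organoids (41.3 to 247). In spheroids it was 327 (150 to 892) for Sox9-mEGFP and 345 (158 to 941) for Sox9-Halo. The intervals cover counting error only. Since 5 of the 6 control counts came from Halo-NLS replicate 3, the fitted log2 changes rested on that library: they were 3.22, 6.43, 8.28 and 8.37 in the order just given, and 5.04, 8.25, 10.10 and 10.19 without it. By fitted rise, Sdc2 ranked 11th among the 438 genes called higher in Sox9-Halo organoids, which are 2.49% of the genes tested, and 76th among the 350 called higher in Sox9-mEGFP organoids, which are 1.99%. The median change of the 741 tested genes of chromosome 15, where Sdc2 lies, was 0.37 in Sox9-mEGFP organoids and -0.10 in Sox9-Halo organoids, and its part in the Sdc2 values was not tested.

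Between the spheroids of both lines, which did not choose the set, the Sdc2 levels differed by 0.09 ± 0.32 on the log2 scale (Sox9-Halo over Sox9-mEGFP, adjusted p = 0.88). Between organoids and spheroids of the same line the fitted rise was 5.06 for Sox9-mEGFP and 1.94 for Sox9-Halo. The line with the lower organoid level thus had the larger step, and both ended at about the same level. Rnf130 and Ube2e2, a ubiquitin ligase and a ubiquitin-conjugating enzyme, had the levels most like those of Sdc2 over the 15 libraries, with a Pearson r of log2 CPM of 0.987 and 0.977 among 11053 genes, followed by Rbm43 and Tcaf1 (both 0.960) and Arhgap6 (0.952). Rnf130 rose from 2.06 to 2.43 CPM in Halo-NLS organoids through 8.26 to 10.0 CPM and 21.0 to 27.4 CPM in Sox9-mEGFP and Sox9-Halo organoids to between 42.7 and 57.6 CPM in spheroids. For Sdc1 the nearest genes were Tor4a (0.965), Shisa5 (0.956), Emc6 (0.950), Tmem125 (0.949) and Arpc1a (0.948). The libraries of a group share their line and passage, so these r values mainly describe differences between the groups.

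Sdc3 (ENSMUSG00000025743, chr4:130519826-130556217, plus strand, GRCm39) encodes syndecan-3, which is mostly found in the nervous system. It was close to the limit of detection, with 2 to 27 counts in a library and at most 0.766 CPM. Sox9-mEGFP spheroids had 14, 18 and 27 counts and Sox9-Halo spheroids 9, 4 and 7, which did not overlap, but the difference of -1.45 ± 0.58 did not pass the test (adjusted p = 0.087). Of its exon bases, 5.24% also belong to the antisense genes Gm12970 and Gm26716, and the counting did not use strand.

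Among the glypicans, Gpc4 (ENSMUSG00000031119, chrX:51139255-51254262, minus strand, GRCm39) was the main one in organoids. Its levels were 36.5, 53.1 and 26.8 CPM in Halo-NLS organoids, 50.6, 39.8 and 33.2 CPM in Sox9-mEGFP organoids and 22.9, 47.9 and 30.7 CPM in Sox9-Halo organoids. They were 27.4, 27.003 and 41.01 CPM in Sox9-mEGFP spheroids and 18.8, 27.9 and 32.8 CPM in Sox9-Halo spheroids. All 5 groups overlapped with their neighbours in level. The largest tested difference, for Sox9-Halo spheroids over the Halo-NLS control, was -0.55 ± 0.32 (adjusted p = 0.17). For the 479 tested genes of the X chromosome, where Gpc4 lies, the median change over Halo-NLS was above that of all genes. It was 0.48 in Sox9-mEGFP and 0.36 in Sox9-Halo spheroids, against 0.030 and -0.011, and its part in the Gpc4 values was not tested.

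Gpc1 (ENSMUSG00000034220, chr1:92759062-92792113, plus strand, GRCm39) encodes glypican-1, a coreceptor for FGFs. It had 3, 14 and 41 counts in Halo-NLS organoids, 4, 4 and 9 in Sox9-mEGFP organoids and 16, 26 and 14 in Sox9-Halo organoids. In Sox9-mEGFP spheroids it had 104, 86 and 171 counts (2.75, 2.57 and 4.85 CPM), and in Sox9-Halo spheroids 2594, 3891 and 4505 counts (91.6, 110 and 121 CPM). Both groups of spheroids lay above every organoid library, and Sox9-Halo spheroids lay above Sox9-mEGFP spheroids in all libraries. Its rise was called within either line, by 4.35 ± 0.63 for Sox9-mEGFP (adjusted p = 9.5e-05) and by 7.71 ± 0.64 for Sox9-Halo (adjusted p = 1.9e-07). Sox9-Halo spheroids exceeded Sox9-mEGFP spheroids by 4.98 ± 0.55, or 31.6-fold (adjusted p = 8.3e-06). Set against Halo-NLS organoids, the rise was 7.23 ± 0.62 in Sox9-Halo spheroids (adjusted p = 2.6e-07) and 2.25 ± 0.54 in Sox9-mEGFP spheroids (adjusted p = 0.0033). The Sox9-mEGFP call against Halo-NLS was lost without Halo-NLS replicate 2 (adjusted p = 0.016), without Sox9-mEGFP spheroid replicate 3 (adjusted p = 0.017) and in a fit of these 6 libraries only (adjusted p = 0.032). Halo-NLS replicate 3 held 41 of the 58 counts of its group, and without it the changes were 3.46 and 8.44 (Sox9-mEGFP and Sox9-Halo). The difference between the lines in the change from organoid to spheroid was 3.36 ± 0.89 (adjusted p = 0.020), not called here but called with DESeq2 (adjusted p = 0.00083). In organoids, as a description, the fitted changes over Halo-NLS were -2.10 for Sox9-mEGFP and -0.48 for Sox9-Halo, and -0.89 and 0.73 without Halo-NLS replicate 3. Of the exon bases of Gpc1, 16.4% are shared with Ankmy1 on the other strand.

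Gpc2 (ENSMUSG00000029510, chr5:138271917-138278288, minus strand, GRCm39) encodes glypican-2, known from the developing nervous system. Halo-NLS organoids had 5, 10 and 5 counts, Sox9-mEGFP organoids 10, 16 and 35, and Sox9-Halo organoids 31, 23 and 48. Sox9-mEGFP spheroids had 2, 0 and 1 counts and Sox9-Halo spheroids 0, 0 and 1, all below every organoid library. The ratio of organoids to spheroids per effective library size was 21.0 in the Sox9-mEGFP line (95% exact interval 6.86 to 105) and 92.8 in the Sox9-Halo line (16.3 to 3702). Halo-NLS organoids exceeded Sox9-mEGFP spheroids 8.70-fold (2.58 to 45.7) and Sox9-Halo spheroids 24.8-fold (3.96 to 1027). These intervals cover counting error only and not the spread between libraries. Gpc2 was called lower in all 4 comparisons (adjusted p = 3.4e-04, 1.6e-05, 0.0058 and 0.0016 in this order). Its mean normalized count was 11.9, just over the limit of 10. It passed that limit and the low-count filter through the Sox9 organoid libraries, where it was highest. Such a choice favours a fall in spheroids, so the 4 calls are no independent evidence for one. The call of Sox9-mEGFP spheroids against Halo-NLS organoids was lost with DESeq2 (adjusted p = 0.0104), with library sizes alone (adjusted p = 0.015), and without Halo-NLS replicate 2 or Sox9-mEGFP spheroid replicate 2 or 3 (adjusted p = 0.028, 0.024 and 0.020). In fits of the spheroids and Halo-NLS organoids compared and no other libraries, Gpc2 did not pass the low-count filter for either line, so neither call over Halo-NLS could be made there. The call in the Sox9-Halo line was lost without Sox9-Halo organoid replicate 3. There the change of -5.68 kept an adjusted p of 8.5e-05, and only the limit on mean counts was missed. As 55.3% of the exon bases of Gpc2 are shared with the antisense gene Gm43720 and strand was not used, its counts are uncertain.

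Of the glypicans that did not pass the filter, Gpc3 (ENSMUSG00000055653, chrX:51361303-51703137, minus strand) had 0 to 14 counts in a library, with 0, 0 and 2 in Halo-NLS organoids and 4, 6 and 6 in Sox9-Halo spheroids. Gpc5 (ENSMUSG00000022112, chr14:115329647-116762591, plus strand) had at most 2 counts and Gpc6 (ENSMUSG00000058571, chr14:117162727-118216940, plus strand) at most 5, except for 16 in Halo-NLS replicate 3. These levels were too low to compare between groups at this depth.

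**Figure D2:**
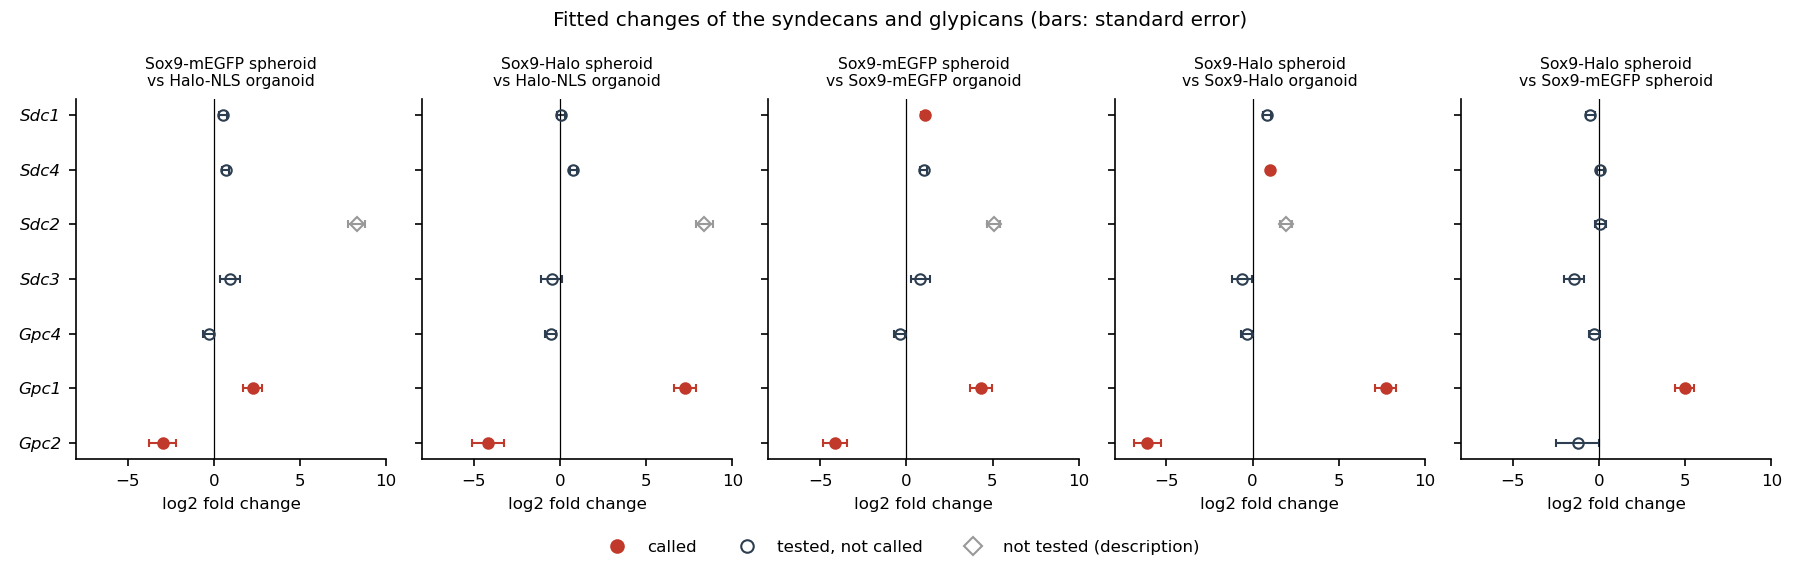
Fitted log2 fold changes of the 7 members in the 5 comparisons that involve spheroids, with standard errors as bars. Filled circles were called, open circles were tested and not called, and diamonds mark Sdc2 where it is a description. A reader sees Gpc1 to the right and Gpc2 to the left of 0 in the first 4 panels, and Gpc1 alone called between both kinds of spheroid (4.98).

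Counted over the 6 members tested, that is without Sdc2, Gpc1 was called higher and Gpc2 lower in both comparisons of spheroids with Halo-NLS organoids. In Sox9-mEGFP spheroids 15.3% of all genes were called higher and 12.1% lower, and in Sox9-Halo spheroids 13.6% and 15.3%. From organoids to spheroids 2 of the 6 members were called higher and 1 lower in either line, namely Sdc1, Gpc1 and Gpc2 for Sox9-mEGFP (all genes: 8.55% higher, 7.88% lower, 16.4% in all) and Sdc4, Gpc1 and Gpc2 for Sox9-Halo (10.5% higher, 14.7% lower, 25.3% in all). Between the spheroids of both lines Gpc1 was the 1 call among 7 members, where 3.59% of all genes were called higher and 9.58% lower in Sox9-Halo (13.2% in all). Between Sox9-Halo and Sox9-mEGFP organoids 0 of 6 members were called by edgeR and 0 by DESeq2, with 1 (Gpc1) at an unadjusted p under 0.05, and 0.456% of all genes were called (0.29% higher and 0.165% lower). For the difference between the lines in the change from organoid to spheroid, 0 of 6 were called by edgeR and 1 (Gpc1) by DESeq2, with 1 at an unadjusted p under 0.05, and 7.39% of all genes were called (1.81% higher and 5.58% lower). With so few members, these counts do not set the families apart from other genes. In each comparison of spheroids with organoids, the member called lower, and the one lying wholly below, was Gpc2. Its entry through the organoid libraries favours such a fall. Without overlap, 3 of the 6 members lay wholly above and 1 below Halo-NLS organoids in Sox9-mEGFP spheroids (29.5% and 27% of all genes), and 2 above and 1 below in Sox9-Halo spheroids (26.5% and 28.4%). Against organoids of the same line 3 lay above and 1 below in Sox9-mEGFP (23.9% and 22.1% of all genes) and likewise in Sox9-Halo (24.6% and 28.2%). Between spheroids 1 of 7 lay higher and 2 lower in Sox9-Halo (20.6% and 28%), and between organoids 1 of 6 higher and 0 lower (5.81% and 6.18%).

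To compare genes with each other, levels were divided by exon length (CPM per kb). Sdc1 made up 68.3 ± 2.95% (SD, n = 3) of the syndecan level in Halo-NLS organoids and 55.8 ± 0.76% in Sox9-Halo spheroids, and Sdc4 made up 31.7 ± 2.93% and 42.4 ± 0.74%. Even at its highest, in Sox9-Halo spheroids, Sdc2 was 1.79 ± 0.061% of the syndecan level, against 0.0056% in Halo-NLS organoids. The large fold change of Sdc2 therefore went with a small share. The syndecan level summed to 161 ± 38.4 CPM per kb in Halo-NLS organoids, 116 ± 20.5 in Sox9-mEGFP organoids, 107 ± 22.1 in Sox9-Halo organoids, 245 ± 8.55 in Sox9-mEGFP spheroids and 204 ± 12.8 in Sox9-Halo spheroids.

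The main glypican was another one in Sox9-Halo spheroids than in the other groups. Gpc4 made up 97.4 ± 2.57% of the glypican level in Halo-NLS organoids and still 93.7 ± 0.18% in Sox9-mEGFP spheroids, where Gpc1 was 5.46 ± 0.63%. In Sox9-Halo spheroids Gpc1 made up 69.4 ± 2.99%, from 67.0% to 72.8% in the 3 libraries, and Gpc4 30.3 ± 3.00%. The summed glypican level was 16.0 ± 2.83 CPM per kb in Sox9-Halo spheroids and between 6.26 ± 1.58 and 7.81 ± 1.54 in the other 4 groups. Glypicans together thus stayed well below syndecans in every group.

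**Figure D3:**
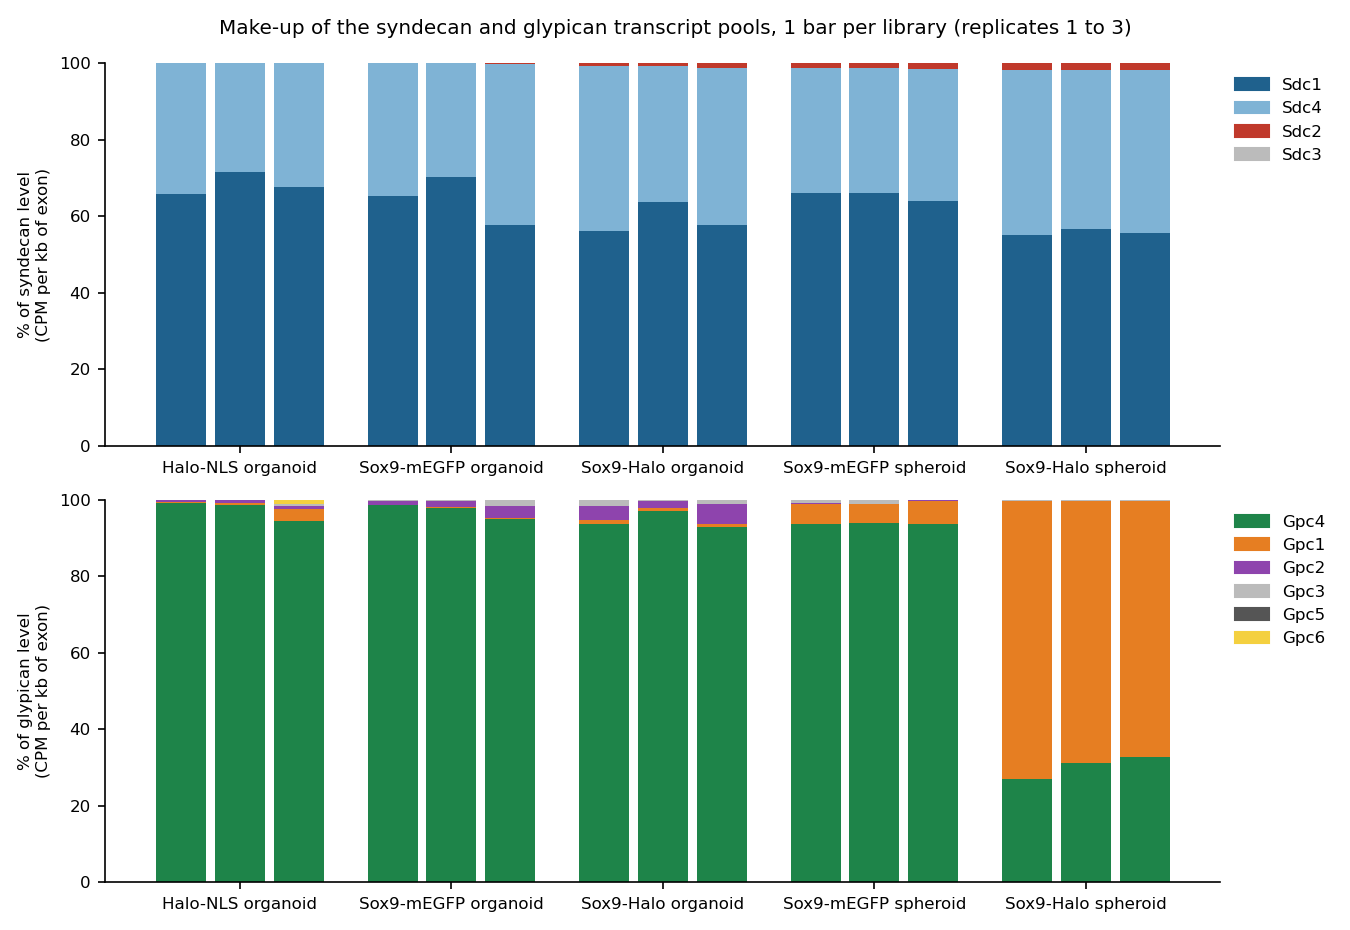
Share of each member in the syndecan level (top) and the glypican level (bottom) of each library, in percent of CPM per kb of exon, with 3 bars per group. A reader sees Sdc1 and Sdc4 fill the syndecan bars throughout, with Sdc2 at 1.79% in Sox9-Halo spheroids, and Gpc1 replace Gpc4 as the larger glypican (69.4%) in Sox9-Halo spheroids only.

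The genes that build, modify, shed and use heparan sulfate were followed in 7 lists of 109 genes, of which 89 were tested. The lists were written from general knowledge but with earlier results of these data known, so the shares below are descriptive. Against Halo-NLS organoids, which both comparisons share, 22 were called higher and 9 lower in Sox9-mEGFP spheroids (34.8%, with 27.5% of all genes called in either direction). In Sox9-Halo spheroids 19 were called higher and 14 lower (37.1%, with 28.9% of all genes). By direction, 15.3% of all genes were called higher and 12.1% lower in Sox9-mEGFP spheroids, and 13.6% and 15.3% in Sox9-Halo spheroids. The counts of single lists below rest on few genes and were not tested against these shares. The median change of the 89 genes was 0.16 and 0.049, with 0.030 and -0.011 over all genes. Changes over Halo-NLS organoids can include differences already present in Sox9 organoids, so some values against organoids of the same line are given below.

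Of the partners and sheddases of syndecans, 13 of 15 were tested, with 5 called higher and 0 lower in Sox9-mEGFP spheroids and 2 higher and 3 lower in Sox9-Halo spheroids (medians 0.78 and 0.29). Mmp7, matrilysin, a protease that sheds syndecan-1, moved in opposite directions. It already differed between the organoids of the lines, at 24.4 to 36.7 CPM in Sox9-mEGFP and 3.90 to 7.07 CPM in Sox9-Halo. It was at 13.9 CPM on average in Halo-NLS organoids, at 1107 to 1327 CPM in Sox9-mEGFP spheroids (change 6.49 ± 0.30, adjusted p = 3.3e-09) and at 0.376 to 0.494 CPM in Sox9-Halo spheroids (-5.01 ± 0.30, adjusted p = 9.3e-09). Adam17, a sheddase of many membrane proteins, rose in spheroids of both lines, by 2.03 ± 0.38 (adjusted p = 5.2e-04) and 2.22 ± 0.38 (adjusted p = 2.1e-04). Its Halo-NLS libraries were uneven at 29.3, 8.27 and 9.10 CPM, and without replicate 1 the changes were 2.87 and 3.06. Against organoids of the same line Adam17 was at 0.93 ± 0.36 and 1.19 ± 0.37 (adjusted p = 0.072 and 0.016), with no call. Ezr, the membrane-actin linker ezrin, was at 0.78 ± 0.23 and 0.77 ± 0.23 and Sdcbp, the syndecan adaptor syntenin, at 0.65 ± 0.35 and 0.29 ± 0.35, none of which was called.

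All 9 genes of glypican processing were tested, with 2 called higher and 1 lower in either kind of spheroid (medians 0.17 and 0.0032). The convertase Pcsk6 rose by 1.95 ± 0.27 in Sox9-mEGFP and 2.24 ± 0.27 in Sox9-Halo spheroids (adjusted p = 3.9e-05 and 7.4e-06). Pcsk5, a related convertase, fell from 110 to 324 CPM in Halo-NLS organoids to 1.45 to 6.03 CPM in Sox9-mEGFP spheroids and to 6, 0 and 6 counts in Sox9-Halo spheroids (adjusted p = 5.2e-06 and 1.2e-07). The fitted change in Sox9-mEGFP spheroids was -5.86, and -6.51 without their replicate 1. Furin, the convertase that cleaves most glypicans, was at -0.47 ± 0.35 and -0.44 ± 0.35 and was not called. Notum, a lipase-like enzyme that inactivates Wnts and was first described as releasing glypicans, rose by 2.97 ± 0.45 in Sox9-Halo spheroids (adjusted p = 6.8e-05) and was at -1.07 ± 0.45 in Sox9-mEGFP spheroids (adjusted p = 0.061). Pgap1, which remodels GPI anchors, rose by 3.29 ± 0.67 in Sox9-mEGFP spheroids (adjusted p = 0.0011), where Halo-NLS replicate 1 stood apart at 46.5 CPM against 8.62 and 7.49 CPM, and by 4.67 without it.

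Of the 23 genes of linkage and chain synthesis, all tested, 3 were called higher and 2 lower in Sox9-mEGFP spheroids and 3 higher and 4 lower in Sox9-Halo spheroids (medians 0.017 and -0.33). Slc26a2, a sulfate transporter, rose by 3.21 ± 0.38 and 1.96 ± 0.36 (adjusted p = 9.2e-06 and 3.8e-04), and Csgalnact2, which starts chondroitin chains, by 1.85 ± 0.50 and 2.01 ± 0.50 (adjusted p = 0.0071 and 0.0040). Mean Slc26a2 was 7.91 CPM in Halo-NLS organoids. It was 32.2 CPM in organoids and 73.1 CPM in spheroids of the Sox9-mEGFP line, and 33.9 and 30.8 CPM in the Sox9-Halo line. Against organoids of the same line Csgalnact2 was at 0.89 ± 0.48 and 0.79 ± 0.48, with no call. The Csgalnact2 libraries of Halo-NLS were at 4.13, 0.855 and 1.31 CPM. Without replicate 1 its changes were 2.80 and 2.97, and its calls were lost without Halo-NLS replicate 2 (1.47 and 1.64) or 3 (1.60 and 1.77), without any library of Sox9-mEGFP spheroids (1.74 to 1.91), and without Sox9-Halo spheroid replicate 1 or 3 (1.94 and 2.02). Extl1, a chain-elongating transferase, fell by 2.66 and 3.05 on the log2 scale, the latter by 3.79 without Sox9-Halo spheroid replicate 1. Ugdh, which makes UDP-glucuronate for the chains, fell by 1.22 in Sox9-Halo spheroids (adjusted p = 0.0089) and was at 0.02 ± 0.34 in Sox9-mEGFP spheroids. The Ugdh call was lost without Halo-NLS replicate 1 or 2 (-0.76 and -1.30) or Sox9-Halo spheroid replicate 2 or 3 (-1.19 and -1.07). Papss1, which makes the sulfate donor PAPS, fell by 1.09 in Sox9-Halo spheroids and was at -0.92 ± 0.22 in Sox9-mEGFP spheroids, and Fam20b, the xylose kinase of the linkage region, was at 0.73 ± 0.20 and 0.20 ± 0.20, under the fold limit.

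Of the 16 genes of sulfation and epimerization, 8 were tested and 3 were called higher and 0 lower in either kind of spheroid, with medians of -0.40 and 0.34. Hs2st1, the 2-O-sulfotransferase, rose from 20.2 to 25.2 CPM in Halo-NLS organoids to 73.0 to 80.4 CPM in Sox9-mEGFP spheroids (1.73 ± 0.19, adjusted p = 4.5e-06) and 58.6 to 76.2 CPM in Sox9-Halo spheroids (1.55 ± 0.19, adjusted p = 8.0e-06). Glce, the epimerase that acts just before it, rose by 2.09 ± 0.34 and 1.73 ± 0.34 (adjusted p = 2.0e-04 and 7.0e-04), and by 2.77 and 2.41 without Halo-NLS replicate 1, which stood at 12.9 CPM against 4.75 and 4.46 CPM. Against organoids of the same line Glce was at 0.66 ± 0.33 and 0.29 ± 0.33, with no call. Hs2st1 was there at 1.03 ± 0.19, called, and 0.91 ± 0.18, under the fold limit. Ndst1, the N-deacetylase and N-sulfotransferase, was at -0.87 ± 0.37 and -0.17 ± 0.36 and Hs6st1, a 6-O-sulfotransferase, at -0.50 ± 0.22 and -0.56 ± 0.22, with no call. Among 12 tested genes of chain editing and breakdown, of 13 listed, 1 was called higher in Sox9-mEGFP spheroids (Ids, a lysosomal sulfatase, 1.59 ± 0.41, adjusted p = 0.0053) and 1 lower in Sox9-Halo spheroids, with medians of 0.24 and 0.28. The Ids call was lost without Halo-NLS replicate 2 or 3 (1.64 and 1.20) or Sox9-mEGFP spheroid replicate 2 or 3 (1.65 and 1.31). Mean Ids was 6.12 CPM in Halo-NLS organoids, 14.7 CPM in Sox9-mEGFP organoids and 18.4 CPM in Sox9-mEGFP spheroids. The gene called lower was Hpse, heparanase, which cuts heparan sulfate outside the cell and went from 18.7 to 23.4 CPM in Halo-NLS organoids to 1.502 to 2.34 CPM in Sox9-Halo spheroids (-3.38 ± 0.27, adjusted p = 1.2e-07). In Sox9-mEGFP spheroids it was at 28.1 to 32.9 CPM (0.53 ± 0.24, adjusted p = 0.081). Sulf2, which removes 6-O-sulfates at the surface, was at 0.67 ± 0.35 and 0.85 ± 0.35, and the lysosomal enzyme Gusb at 0.31 ± 0.22 and 0.40 ± 0.22, with no call.

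Of 10 other proteoglycans that can carry heparan sulfate, 7 were tested, with 3 called higher and 1 lower in either kind of spheroid (medians 0.74 and 2.25). Col18a1, collagen XVIII of the basement membrane, rose from 1.09 to 2.85 CPM in Halo-NLS organoids to 273 to 458 CPM in Sox9-mEGFP and 243 to 259 CPM in Sox9-Halo spheroids (7.66 ± 0.42 and 7.14 ± 0.41, adjusted p = 1.1e-08 and 6.7e-09). Cd44, the hyaluronan receptor, rose by 5.89 ± 0.55 and 4.37 ± 0.52 (adjusted p = 1.1e-06 and 6.0e-06). Agrn, agrin of the basement membrane, was at 0.74 ± 0.38 and 1.01 ± 0.38, with no call. Tgfbr3, the TGF-beta coreceptor betaglycan, had 53 counts in Halo-NLS organoids, 2 in Sox9-mEGFP spheroids and 1 in Sox9-Halo spheroids. Per effective library size that is 34.6-fold lower (9.12 to 293) and 65.6-fold lower (11.3 to 2641), with intervals for counting error only. Tgfbr3 was the gene called lower, and Sox9-mEGFP and Sox9-Halo organoids held 57 and 80 counts of it. It thus passed the low-count filter through organoid libraries. As for Gpc2, such a choice favours a fall in spheroids, so its calls are no independent evidence for one.

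Heparin-binding growth factors and their receptors went both ways, with 17 of 23 tested, 5 called higher and 5 lower in Sox9-mEGFP spheroids and 6 higher and 4 lower in Sox9-Halo spheroids (medians -0.67 and -0.00034). Fgf1 rose from 0.103 to 0.599 CPM in Halo-NLS organoids to 11.6 to 15.1 and 5.50 to 7.02 CPM (5.15 ± 0.47 and 4.04 ± 0.46, adjusted p = 8.6e-07 and 3.8e-06). Against organoids of the same line it was at 3.48 ± 0.42, called, and 0.97 ± 0.38, not called. Fgf9 fell by 3.74 on the log2 scale in Sox9-mEGFP spheroids (adjusted p = 1.1e-05) and was at 1.22 ± 0.37 in Sox9-Halo spheroids (adjusted p = 0.013). Fgfr3, a receptor for both, fell by 2.31 and 5.50 (adjusted p = 3.6e-05 and 2.7e-08). Pdgfa fell by 1.90 and 1.94 in spheroids of both lines, Areg fell by 1.76 in Sox9-Halo spheroids, and Vegfa rose by 1.66 ± 0.43 in Sox9-mEGFP spheroids (adjusted p = 0.0057) and was at -0.22 ± 0.42 in Sox9-Halo spheroids. The Vegfa call was lost without Halo-NLS replicate 2 or 3 (1.76 and 1.41) or any library of Sox9-mEGFP spheroids (1.51 to 1.72). The Areg call was lost without Halo-NLS replicate 1 or 2 (-1.41 and -1.64) or any library of Sox9-Halo spheroids (-1.85 to -1.65).

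**Figure D4:**
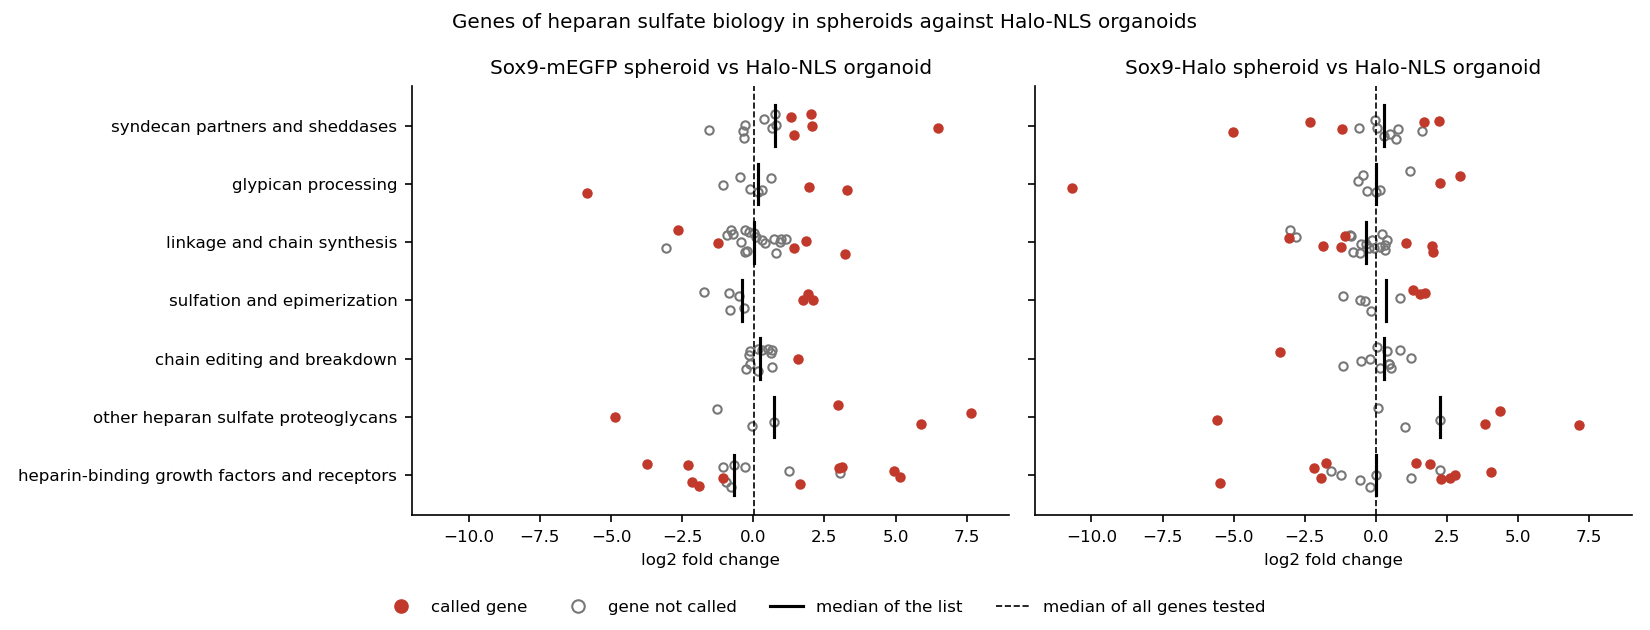
Log2 fold changes of the 89 tested genes in the 7 lists, in spheroids of either line against Halo-NLS organoids. Filled points were called, bars are list medians and the dashed line is the median of all genes. A reader sees called genes on both sides of 0 in most lists, with Col18a1 (7.66 and 7.14) farthest to the right among the other proteoglycans and Pcsk5 farthest to the left.

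The organoid values are given as a description because of the way the set was chosen. Among the partners and sheddases the median change was 0.75 in Sox9-mEGFP and 0.84 in Sox9-Halo organoids, with ranges from -0.80 to 1.51 and from -1.34 to 1.78. The other lists had medians between -0.55 and 0.23. In bulk RNA a lower share of cells that make a transcript and less of it in each cell cannot be told apart for any of these genes.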

How the data were processed

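Per the labels and the study's methods, the authors trimmed reads with cutadapt 4.5, aligned them with STAR to mm39 (GRCm39), retained uniquely placed reads and assigned them to genes by HTSeq 2.0.2 without strand. The deposited counts per library are whole numbers and not normalized. The authors' normalized counts and their 7 tables of fold changes and p-values were not used here. Groups came from the titles. Gene positions and exon lengths came from GENCODE M39, which holds 78168 of the 78298 identifiers.

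Counts were scaled by TMM and filtered with filterByExpr, and 1 edgeR 4.0.16 quasi-likelihood model with 1 coefficient per group was fitted to all 15 libraries in R 4.3.3, with Benjamini-Hochberg adjustment over 17560 genes. As in the study, a call required an adjusted p up to 0.01, a change of 2-fold or more either way (log2 of 1) and 10 or more normalized counts on average. A standard error is the size of the log2 change over the root of its F statistic. The method was tested on simulated data. Ratios of low counts have exact binomial intervals (95%). Alternatives were DESeq2 1.42.0, RLE scaling, library sizes alone, no filter, other thresholds, only the groups compared, a replicate block and leaving out each library, and 1 blocked fit was chosen after seeing the data. Reads on more than 1 gene, 9.65% to 13.6% of reads, were not counted by the authors, which lowers genes with overlapping neighbours. Named genes are all members and, from each list, the 3 most abundant and those with the largest called rise and fall in either kind of spheroid. Of these, 1 gene is not reported here. The members and lists were chosen with earlier results of these data known.

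Replicate numbers were taken to pair libraries where all 3 same-numbered pairs had deviations from their group means that correlated above 0.1, which held only between Sox9-Halo organoids and Sox9-Halo spheroids (r = 0.403, 0.234 and 0.344 over 11054 genes, mean of other-numbered pairs -0.170). Deviations from a group mean cancel out within the group. The value of the other-numbered pairs therefore largely follows from the same-numbered ones and is no separate evidence of pairing.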

Additional observations from a re-analysis of the deposited data

Results flagged for a closer look

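The change from Halo-NLS organoids differed between the spheroids of both lines for 8 of the named genes, by the edgeR test of Sox9-Halo against Sox9-mEGFP spheroids, which shares the controls and so tests the difference itself. In log2 units, Sox9-Halo minus Sox9-mEGFP, it was 4.98 for Gpc1, 4.96 for Fgf9 and 4.04 for Notum, all higher in Sox9-Halo spheroids in 3 of 3 libraries. It was -11.5 for Mmp7, -4.83 for Pcsk5, -3.90 for Hpse, -3.19 for Fgfr3 and -1.88 for Vegfa. The Vegfa libraries were 197, 75.4 and 53.7 CPM in Sox9-Halo spheroids and 358 to 473 CPM in Sox9-mEGFP spheroids. Each line was 1 culture with its own second transgene, and Sox9-Halo spheroids had been cultured longer. Differences between the constructs, between the cultures and in time in culture therefore cannot be told apart.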

How the results depend on the processing

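Counts of members called changed as follows. For Sox9-mEGFP spheroids against Halo-NLS organoids the 2 calls became 1 with library sizes alone, 1 with DESeq2 and 0 with only the groups compared, and 0 to 2 with a library left out, 0 without Halo-NLS replicate 2 or Sox9-mEGFP spheroid replicate 3. For Sox9-Halo spheroids against Halo-NLS organoids 2 became 1 with only the groups compared, and for Sox9-Halo spheroids against organoids 3 became 1 to 4 with a library left out, lowest without Sox9-Halo organoid replicate 3. For the difference between lines in that change, 0 became 1 (Gpc1) with no filter, an adjusted p of 0.05, only the groups compared or DESeq2.

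Genes of the 7 lists called changed with a log2 limit of 2 from 22 to 13 higher in Sox9-mEGFP and from 19 to 11 higher and 14 to 8 lower in Sox9-Halo spheroids against Halo-NLS, from 13 to 6 higher (Sox9-mEGFP) and 14 to 7 higher (Sox9-Halo) against organoids, and from 11 to 7 lower in Sox9-Halo against Sox9-mEGFP spheroids. The 13 became 20 with no filter and 8 to 11 with a library left out, 8 without Sox9-mEGFP organoid or spheroid replicate 2. Between spheroids the 11 lower became 19 with no filter, an adjusted p of 0.05 or only the groups compared and 17 with DESeq2, and the 7 higher became 4 to 7, 4 without Sox9-Halo spheroid replicate 2.

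Among tested values of members, signs turned only where nothing was called. Sdc3 between organoids of both lines was -0.02, 0.016 with library sizes alone, 0.030 with the replicate block and -0.41 to 0.20 with a library left out. The difference between lines for Gpc4 was 0.02, -0.011 with library sizes alone and -0.20 to 0.36 with a library left out, and for Sdc4 -0.092 to 0.15. With a library left out, Sdc1 ranged from -0.15 to 0.16 and Sdc3 from -0.96 to 0.44 in Sox9-Halo spheroids against Halo-NLS, Gpc4 from -0.53 to 0.015 in Sox9-mEGFP spheroids against Halo-NLS and Sdc4 from -0.066 to 0.19 between organoids. The cause of these changes was not tested. The replicate block changed no member's call in the fit of all libraries. In the Sox9-Halo line alone, Sdc4 was called with the block (3 members called) and not without it (2). Depth limits Sdc3, Gpc2, Gpc3, Gpc5 and Gpc6.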
